A study of Rattus norvegicus with 8 samples.

Results

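Avp, Oxt, Rax, Nkx2-1, Gfap, Aqp4, Mbp, Scn7a and Slc1a3 are 9 genes known to be expressed by the axon endings, glia and myelin of the posterior lobe of the pituitary. The genes were taken by name, as every non-control spot whose gene name on the array is one of the 9, which gave 17 probes on 53 spots per array out of 30367 probes, and 9 of 26257 genes. RNA came from the pituitaries of lactating Wistar rats on postpartum day 7, from 4 control samples and 4 samples exposed to TCDD, a dioxin that activates the aryl hydrocarbon receptor (AhR). Both groups were lactating. The sources used here state neither the dose of TCDD nor the day it was given, and they do not say how much of each lobe the tissue held. Each sample was labelled with Cy3 and hybridised to its own 1-colour Agilent rat expression array. The labels do not say whether the samples were separate animals, and p-values then cover the spread among the samples alone, which may be technical.

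The posterior lobe is an outgrowth of the hypothalamus and holds the axon endings of neurons whose cell bodies lie in the supraoptic and paraventricular nuclei. Those neurons make vasopressin and oxytocin, carry them down the axon and release them into the blood, and during lactation oxytocin drives milk ejection at each suckling bout. Pituicytes, the resident glia related to astrocytes, surround the endings. The mRNAs of Avp and Oxt are partly carried down these axons, and are known to be present in posterior lobe tissue.

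Values are log2 of the scanner's processed signal minus the log2 of that array's 75th percentile, so that 0 is the level of the 75th percentile probe and a difference of 1 is a doubling. The 75th percentile signal ran from 765 to 932 over the 8 arrays, between 71.1% and 73.9% of spots were well above background, and 0 spots were saturated. All control arrays lay on one slide and all TCDD arrays on another, each scanned apart, so slide and treatment cannot be told apart. Cyp1a1, the classic AhR target, was read as a check of the labels. It was dim (not well above background) in 4 of 4 controls and bright in 4 of 4 TCDD samples, a rise of at least 7.28-fold. Its probe passed the filter of 4 bright arrays through the TCDD arrays alone, which favours a rise. The difference between the group means as measured, 3.98 on the log2 scale, passed the threshold (limma, Benjamini-Hochberg adjusted p = 0.028). This call was lost when any 1 control array was left out. Without any 1 TCDD array the probe no longer met that filter, so the call could not be made. Of the 9 posterior lobe genes, 8 had a probe bright enough to test; Gfap, the usual astrocyte marker, did not.

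The sequences on which the later results turn are 4 probes and the upstream sequence of both hormone genes. The 60-base probes for Avp and Oxt are shown because these hormones carry the widest and the most shared pattern. The Rax probes are shown because they overlap by 49 bases and yet gave different profiles. Capitals in the Rax probes mark the 1 position at which they differ, G15A counted from base 1 at the 5′ end of the probe at base 552, which is position 4 of the other.
Avp probe at base 450: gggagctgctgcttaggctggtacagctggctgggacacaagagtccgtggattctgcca
Oxt probe at base 50: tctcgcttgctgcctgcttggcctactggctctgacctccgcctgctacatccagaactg
Rax probe at base 552: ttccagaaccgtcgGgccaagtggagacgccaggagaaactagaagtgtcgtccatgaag
Rax probe at base 563: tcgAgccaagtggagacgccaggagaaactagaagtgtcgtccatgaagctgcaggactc
The base is the place where the probe begins on the transcript it is assigned to, as the array files give it. In build rn4, which the files use, the Avp probe lies at chr3:118205082-118205141 and the Oxt probe at chr3:118194269-118194328, with 10753 bases between them. The Rax probes lie at chr18:62570715-62570774 and chr18:62570726-62570785. No rn4 annotation was used here, so exon, intron and UTR positions of the probes are not stated.

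Because Avp and Oxt are neighbours, the 250 bases before each start site are printed from RefSeq (GRCr8). Capitals mark GCGTG or its reverse complement CACGC, the core letters bound by the AhR and its partner, and TGACC or GGTCA, letters found in hormone receptor elements, both searched on both strands.
Avp, chr3:138248523-138248772, minus strand: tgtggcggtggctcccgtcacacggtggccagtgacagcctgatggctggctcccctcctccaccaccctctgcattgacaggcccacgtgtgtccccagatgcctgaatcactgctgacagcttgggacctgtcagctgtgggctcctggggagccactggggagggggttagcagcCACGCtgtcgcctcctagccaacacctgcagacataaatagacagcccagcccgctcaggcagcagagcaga
Oxt, chr3:138235504-138235753, plus strand: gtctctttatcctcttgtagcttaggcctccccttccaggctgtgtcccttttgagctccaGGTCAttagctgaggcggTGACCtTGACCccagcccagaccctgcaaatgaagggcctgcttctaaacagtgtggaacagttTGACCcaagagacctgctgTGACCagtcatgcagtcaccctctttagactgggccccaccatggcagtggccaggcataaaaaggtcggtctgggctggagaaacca
The Avp stretch held 1 GCGTG match, which appears as CACGC in the sequence as printed and begins at -72 from the start site. The Oxt stretch held 5 TGACC matches, at -189, -171, -165, -107 and -88. In the full window, which runs from 250 bases before to 50 past the start, GCGTG was present in 29.7% of 33469 rat promoters and TGACC in 40.5%. The 9 genes have 13 promoters in the table, of which 4 held GCGTG (in Avp, Scn7a, Gfap and Mbp) and 3 held TGACC (in Oxt, Gfap and Mbp). These matches describe letters only.

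None of the 8 tested genes passed an adjusted p of 0.05 between TCDD and control (limma with Benjamini-Hochberg adjustment over 17361 genes), against 0.0806% of all genes tested (0.0576% higher and 0.0230% lower). At an unadjusted p under 0.05 there was 1 of 8, Avp, against 10.7% of all genes, and none of the alternative settings called any of the 8. No gene of the 8 had groups that did not overlap, which 7.10% of all genes did. The median log2 difference of TCDD minus control was -0.03 over the 8 genes, with 3 higher and 5 lower, beside 0.02 over all genes. The variation between arrays of the same group was wide for some of these genes.

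**Figure D1:**
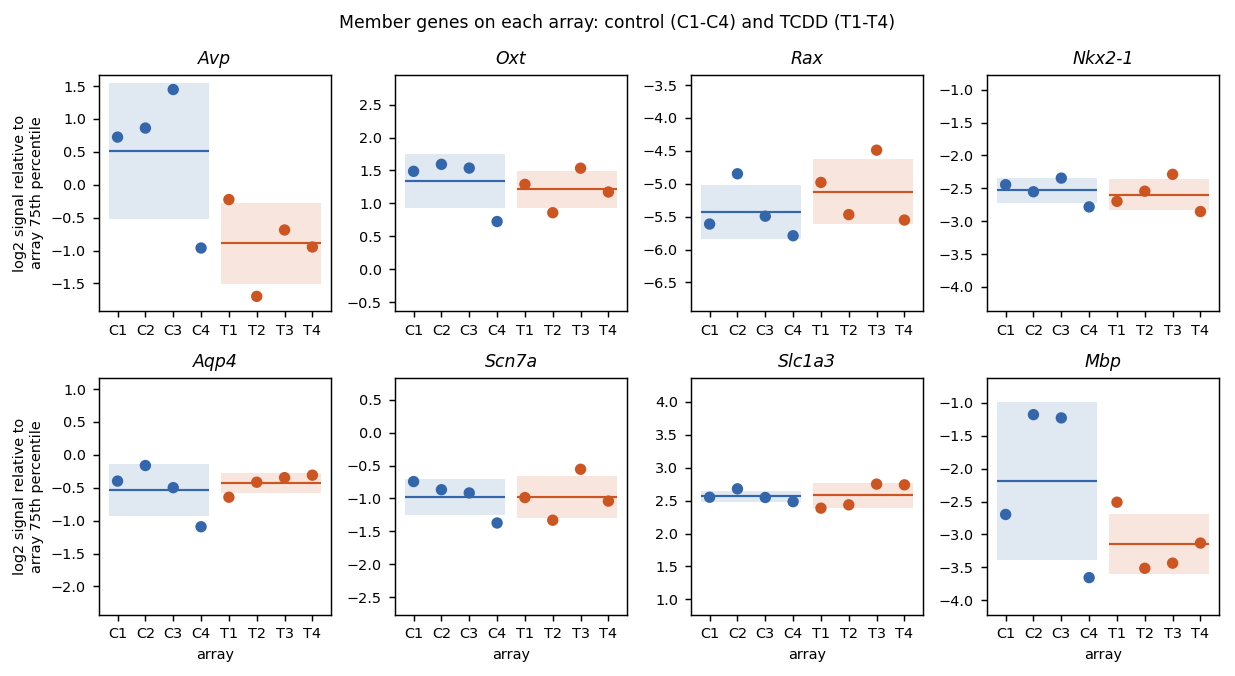
Level of 8 posterior lobe genes on each array, as log2 signal relative to the array's 75th percentile (y axis, of the same height in every panel), against the array (x axis, C1 to C4 control and T1 to T4 TCDD). Points are arrays, lines are group means and bands are 1 SD on each side. Avp and Mbp spread most, Slc1a3 least, and control replicate 4 is the lowest array for Oxt, Rax, Aqp4, Mbp and Scn7a.

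Vasopressin and oxytocin are the 2 hormones of the lobe. Avp, which encodes vasopressin and its carrier neurophysin, read 0.72, 0.86, 1.45 and -0.96 in control replicates 1 to 4. In TCDD replicates 1 to 4 it read -0.22, -1.70, -0.69 and -0.95. Of the controls, 3 lay above every TCDD array, while control replicate 4 lay among the TCDD arrays, so the groups overlapped. The difference of TCDD minus control was -1.41 on the log2 scale (SE 0.52, n = 4 per group, 95% confidence interval -2.60 to -0.21), a 2.65-fold lower mean. It did not pass the adjusted threshold (limma, Benjamini-Hochberg adjusted p = 0.41; exact permutation p = 0.11, where the smallest possible is 0.029). Avp varied 8.84-fold between its lowest and highest array, and its SD over the arrays was larger than that of 99.4% of genes tested. The 10 spots of its probe agreed far more closely, with an SD among spots of 0.059 to 0.093 on each array. Less RNA per cell and fewer axon endings or cells in the sample cannot be told apart in such bulk tissue.

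Oxt, which encodes oxytocin, read 1.49, 1.59, 1.54 and 0.72 in control replicates 1 to 4 and 1.29, 0.86, 1.53 and 1.17 in TCDD replicates 1 to 4. Control replicate 4 was again the lowest, TCDD replicate 2 the next, and the groups overlapped. The difference was -0.12 (SE 0.22, n = 4 per group, 95% confidence interval -0.63 to 0.38; limma adjusted p = 0.90). Its range over arrays was 1.83-fold, much narrower than that of Avp. When each gene was first centred on its mean over the 8 arrays, Avp minus Oxt was 0.70, 0.73, 1.37 and -0.23 in the controls and -0.05, -1.10, -0.76 and -0.66 in the TCDD samples. TCDD replicate 1 exceeded control replicate 4, so these groups overlapped too. The difference was -1.29 (exact permutation p = 0.057, Benjamini-Hochberg adjusted over 4 such differences 0.11).

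Scn7a encodes the sodium-level sensor channel Nax, found in pituicytes and other glia. It read -0.74, -0.87, -0.92 and -1.37 in the controls and -0.99, -1.33, -0.56 and -1.04 in the TCDD samples. The groups shared the same range, with control replicate 4 lowest and TCDD replicate 3 highest. The difference was -0.0033 (SE 0.19, 95% confidence interval -0.43 to 0.43, n = 4 per group), and the 10 spots of its probe had an SD of 0.024 to 0.075 on each array.

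Rax and Nkx2-1 encode homeobox transcription factors that the posterior lobe and its pituicytes keep from their origin in the ventral hypothalamus. Nkx2-1 read -2.44, -2.55, -2.34 and -2.78 in the controls and -2.70, -2.54, -2.29 and -2.85 in the TCDD samples, a difference of -0.06 (SE 0.14, n = 4 per group). The spread was small in both groups and they overlapped fully. The other Nkx2-1 probe was not well above background on any array. For Rax, by the probe at base 552, levels were -5.61, -4.85, -5.49 and -5.79 in the controls and -4.98, -5.47, -4.49 and -5.55 in the TCDD samples. TCDD replicate 3 was the highest and control replicate 4 the lowest, and the difference of 0.31 (SE 0.28, limma adjusted p = 0.75) was within the spread.

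Slc1a3, the glutamate transporter of astrocytes and pituicytes, was the steadiest member. It read between 2.48 and 2.68 in the controls and between 2.39 and 2.75 in the TCDD samples, a difference of 0.01 (SE 0.10, 95% confidence interval -0.22 to 0.25, n = 4 per group). Aqp4, the water channel of astroglia, read -0.40, -0.16, -0.50 and -1.09 in the controls and -0.64, -0.42, -0.35 and -0.31 in the TCDD samples, a difference of 0.11 (SE 0.19). Control replicate 4 alone stood below the rest. Without that array the Aqp4 difference was -0.08.

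Mbp encodes a core myelin protein, and some of its transcripts begin far upstream in the same locus. By the probe at base 2094 it read -2.70, -1.18, -1.23 and -3.66 in the controls and -2.51, -3.51, -3.44 and -3.13 in the TCDD samples. Control replicates 2 and 3 stood more than 1 log2 unit above every other array, and the groups overlapped. The difference was -0.96 (SE 0.56, n = 4 per group, 95% confidence interval -2.24 to 0.32; limma adjusted p = 0.60). It was -0.37 as the mean of both Mbp probes. Without control replicate 2 or 3 the other probe became the brighter and the difference was 0.16 or 0.17. Its SD over arrays exceeded that of 99.1% of genes tested.

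Several members had more than 1 probe, and their probes did not all give the same profile. In a fit over single probes 0 probes of the members passed, against 0.0451% of the 19950 probes kept and, with no filter on dim probes, 0.0198% of 30367. Over the 8 arrays the Aqp4 probes at bases 986 and 4840 followed each other closely (r = 0.984, exact permutation p = 0.00022, adjusted 0.0018; rho = 0.929). The Slc1a3 probes at bases 1751 and 3787 also did (r = 0.918, adjusted 0.0051), and those of Scn7a at bases 5057 and 6112 less so (r = 0.788, adjusted 0.043; rho = 0.714, exact permutation p = 0.058), with r = 0.429 without the 2 arrays farthest from the median, so that relation rested on those arrays. The Aqp4 probe at base 1609 gave r = 0.638 with the probe at base 986 and r = 0.650 with the probe at base 4840. Its own difference was 0.21 (SE 0.09; limma adjusted p = 0.45; exact permutation p = 0.057, n = 4 per group).

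The 2 Mbp probes, which the array design assigns to different Mbp transcripts, ran opposite to each other. The probe at base 1413 read -2.89, -3.13, -3.12 and -2.83 in the controls and -2.77, -2.71, -2.72 and -2.93 in the TCDD samples. It was lowest on control replicates 2 and 3, where the probe at base 2094 was highest. The correlation was -0.874 (exact permutation p = 0.0090, adjusted over the 8 probe pairs 0.024; rho = -0.714, exact permutation p = 0.058). It was -0.312 without the 2 arrays farthest from the median, so the relation rested on those arrays. The change by the first probe was 0.21 (SE 0.09) and by the second -0.96 (SE 0.56), and the difference between these changes, 1.17, did not pass (exact permutation p = 0.26, adjusted over 6 such pairs 0.94). In rn4 the probes lie at chr18:79026442-79026501 and chr18:79057264-79057323, 30762 bases apart.

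The Rax probes printed above share 48 of 49 overlapping bases. The probe at base 563 read -5.06, -4.98, -5.38 and -7.13 in the controls and -6.17, -7.64, -6.37 and -7.26 in the TCDD samples. It was well above background on 3 control arrays, replicates 1 to 3, and on 0 of 4 TCDD arrays. With no filter on dim probes its difference was -1.22 (SE 0.55; limma adjusted p = 0.67), against 0.31 for the probe at base 552. The profiles of the Rax probes correlated at r = 0.269 (exact permutation p = 0.51). The probe at base 563 followed Avp instead, with r = 0.941 (exact permutation p = 0.0012, adjusted over 30 probe and hormone pairs 0.024, rho = 0.905) and r = 0.974 without the 2 arrays farthest from the median. By rho the adjusted exact permutation p with Avp was 0.068, which did not pass. The same probe also ran with Oxt, at r = 0.840 (exact permutation p = 0.012, adjusted 0.070, rho = 0.810). Its signal on the 5 dim arrays lies near background, and whether that sets the likeness was not tested.

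Gfap had 2 probes, both at or near background and listed under different transcript records. The probe at base 1215 was well above background on 1 control array and 0 of 4 TCDD arrays. With no filter on dim probes its difference was -0.93 (SE 0.46; limma adjusted p = 0.73). Its profile correlated with that of the probe at base 1674 at r = -0.384 (exact permutation p = 0.38). The probe at base 1674, printed on 10 spots, was well above background on 0 control and 2 TCDD arrays, with means of -6.62 ± 0.12 and -6.07 ± 0.26 (SD, n = 4 each). Its groups did not overlap. With no filter on dim probes the difference of 0.55 (SE 0.14) did not pass over all 30367 probes (limma adjusted p = 0.41; exact permutation p = 0.029, the smallest possible). Among its spots the SD was 0.20 to 0.73 on each array, against 0.059 to 0.093 for the bright Avp probe.

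**Figure D2:**
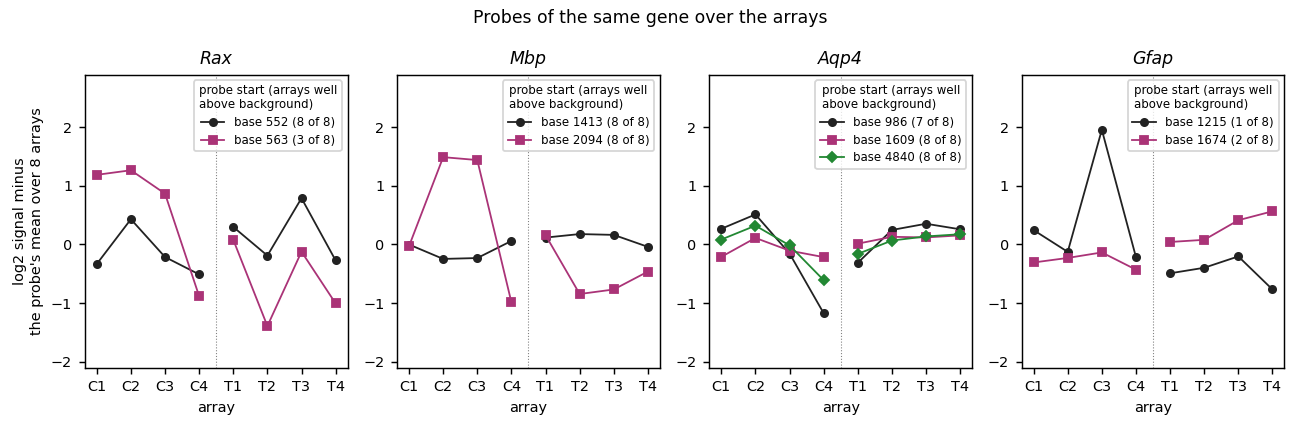
Profiles of the probes of Rax, Mbp, Aqp4 and Gfap, as log2 signal minus the probe's own mean over the 8 arrays (y axis), against the array (x axis, C1 to C4 control, T1 to T4 TCDD). Each line is a probe, named by its starting base with the number of arrays on which it was well above background. The Mbp probes run opposite to each other on C2 and C3, and the Aqp4 probes at bases 986 and 4840 run together.

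The members were then compared with each other over the 8 arrays. With the brightest probe of each gene, all 28 pairs of the 8 tested genes correlated above 0, with a median r of 0.479 and a range of 0.0816 to 0.907. With the Mbp probe at base 1413 in place of that at base 2094, a choice added after the data were seen, 22 of 28 pairs lay above 0 and the median r was 0.448, while 6 of the 7 pairs with Mbp were negative. Over all pairs of genes tested the median r was 0.0105, the upper quartile 0.317, and 50.9% lay above 0. Within groups, after subtracting group means, the median member r was 0.576 and all 28 pairs stayed above 0, with Mbp read at base 2094. Without the 2 arrays farthest from the median of a pair's first gene, some pairs turned negative. These were Aqp4 with Mbp (-0.525), Rax with Slc1a3 (-0.459) and Mbp with Slc1a3 (-0.229), while the others stayed above 0. Rax with Nkx2-1 (0.0089) and Avp with Slc1a3 (0.012) were then near 0. Arrays share their scaling and 4 arrays share each slide.

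Oxt was closest to the mean of the other members (r = 0.936), then Avp (0.747), Mbp (0.744) and Scn7a (0.694), while Rax (0.339) and Slc1a3 (0.317) were least like it. That mean was not scaled, so Avp and Mbp, which varied most, weighed most in it wherever they were among the others. Mbp was read here by its probe at base 2094. The probe at base 1413 correlated with Oxt at -0.516, so the place of Mbp depends on the probe. The correlation of Oxt with Scn7a was 0.907 (exact permutation p = 0.0016, adjusted over 28 pairs 0.033; rho = 0.810, exact permutation p = 0.022). Without the 2 arrays farthest from the median it was 0.646. Avp correlated with Mbp at 0.885 (exact permutation p = 0.0024, adjusted 0.033; rho = 0.905, exact permutation p = 0.0046), and at 0.755 without the 2 farthest arrays. That holds for the Mbp probe at base 2094; by the probe at base 1413, also well above background on all 8 arrays, the correlation with Avp was -0.799 (exact permutation p = 0.020, rho = -0.714). These were the only 2 of 28 pairs that passed after adjustment of r, and none passed by rho (0 of 28). Avp and Oxt gave r = 0.774 (exact permutation p = 0.027, adjusted 0.25; rho = 0.881).

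**Figure D3:**
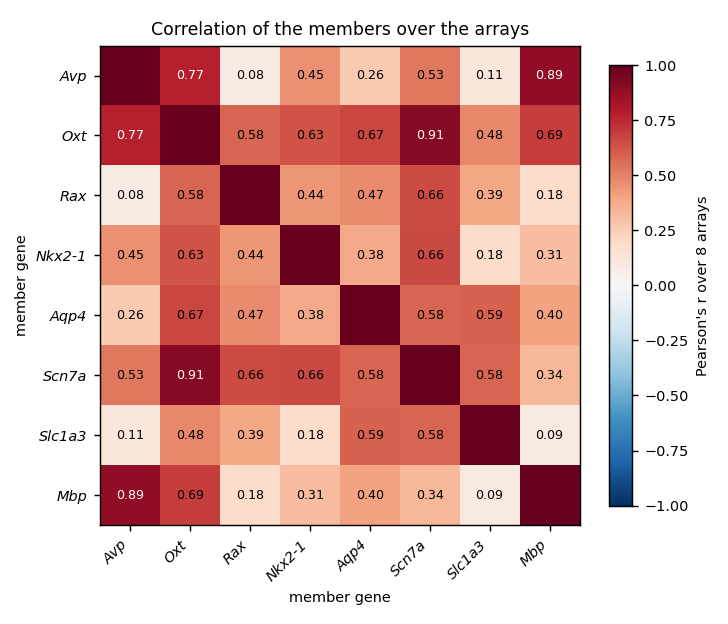
Pearson's r over the 8 arrays for each pair of the 8 tested genes (both axes list genes, colour and number give r from -1 to 1). Mbp is read by its probe at base 2094. All 28 values are above 0, the highest being 0.91 for Oxt with Scn7a and 0.89 for Avp with Mbp.

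The mean of the 8 members, each centred on its own mean but not scaled, gives 1 value per array for their shared level. Avp and Mbp, which varied most (SD 1.09 and 0.99), weigh most in this mean. Whether it follows the share of posterior lobe in a sample was not tested. It was 0.15, 0.48, 0.42 and -0.52 in control replicates 1 to 4 and -0.01, -0.42, 0.10 and -0.20 in TCDD replicates 1 to 4. Control replicates 2 and 3 were highest, control replicate 4 and TCDD replicate 2 lowest, and the groups overlapped. Control replicate 4 and TCDD replicate 2 also had the lowest shares of spots well above background (71.1% and 71.4%) and the lowest 75th percentile signals (805 and 765), and the part of array quality in their low member level was not tested. Over the 6 members other than Avp and Mbp the mean was 0.05, 0.22, 0.05 and -0.40, and -0.03, -0.17, 0.34 and -0.06. There TCDD replicate 3 was highest and control replicate 4 lowest. Intermediate lobe genes ranged from -0.15 to 0.14 in controls and -0.18 to 0.27 in TCDD samples on the same scale, and 10 anterior lobe hormone and receptor genes from -0.09 to 0.19 and -0.14 to 0.05. Genes of stroma and pericytes ranged from -0.36 to 0.15 and -0.27 to 0.37, about as widely as the 6 members. Erythrocyte genes ranged more widely than all 8 members, from -0.68 to 0.24 and -0.01 to 0.65, and were lowest in control replicates 1 to 3.

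The other genes of the posterior lobe and its input were taken as lists chosen with earlier results of these data known. None of them passed the adjusted threshold. Of 12 tested other pituicyte and astroglial genes, 8 were higher and 4 lower in TCDD samples, with a median difference of 0.08. The widest was Aldh1l1, an astrocyte enzyme of folate metabolism. It was dim in all 4 controls and at least 1.59-fold higher in TCDD samples, all 4 measured, with groups that did not overlap (limma adjusted p = 0.32). Its probe passed the filter of 4 bright arrays through the TCDD arrays alone, which favours a rise. It was the 1 of the 12 genes without overlap, against 7.10% of all genes tested. Fabp7, a glial fatty acid carrier, had a difference of -0.41 (SE 0.42). Vim and Glul, the glial filament vimentin and glutamine synthetase, had differences of 0.25 (SE 0.11) and 0.25 (SE 0.16). Of 13 other myelin genes 6 were higher and 7 lower (median -0.06), with Mal at -0.33 (SE 0.25) and Mag at 0.24 (SE 0.09).

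Of 12 neuronal and axonal genes, 9 were higher and 3 lower (median 0.13). Sncg, which encodes gamma-synuclein, had -0.32 (SE 0.18), and the neurofilament gene Nefm had 0.22 (SE 0.14). Of 8 genes for receptors and processing enzymes of both hormones, 4 were higher and 4 lower (median 0.03). The pituitary vasopressin receptor Avpr1b had -0.37 (SE 0.39) and the prohormone convertase Pcsk2 had 0.30 (SE 0.18). Oxtr, the oxytocin receptor, was not bright enough to test. Of 9 other hypothalamic peptides, 5 were higher and 4 lower (median 0.09).

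Over these and the other lists, 104 genes were compared with each hormone, making 208 pairs. Oxt followed Lhx2, a transcription factor that pituicytes need to form. Lhx2 read -2.61, -2.20, -2.46 and -4.09 in the controls and -2.70, -4.01, -2.56 and -3.14 in the TCDD samples. Both genes put the 8 arrays in the same order, with control replicate 4 and TCDD replicate 2 at the bottom. The correlation was 0.982 (exact permutation p = 2.5e-05, the smallest its 40320 orders can give; adjusted 0.0052; rho = 1.00, exact permutation p = 5.0e-05). Without the 2 arrays farthest from the median it was 0.917. Agrp, a peptide of hypothalamic feeding neurons, ran opposite to Oxt (r = -0.917, exact permutation p = 0.0016, adjusted 0.041; rho = -0.976). Over the 9 other hypothalamic peptides, Agrp among them, r with Oxt ran from -0.917 to 0.762 (median -0.314).

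Avp correlated with Cnp, which encodes a myelin enzyme (r = 0.901, exact permutation p = 0.0013, adjusted 0.041; rho = 0.952). Of the 13 other myelin genes, 9 correlated with Avp above 0 and 4 below (median r 0.465), with Mag at -0.868 and Mobp at -0.630. Avp also correlated with Fshb, which encodes a subunit of the gonadotropin FSH in the anterior lobe (r = 0.929, adjusted 0.041; rho = 0.857). Over the 10 anterior lobe hormone and receptor genes, r with Avp ran from -0.486 to 0.929, with a median of 0.053. Among all 104 genes compared, the largest correlations of Avp were negative and with genes of red blood cells. Its r was -0.960 with Hba-a1 (exact permutation p = 0.00055, adjusted 0.041; rho = -0.905), -0.955 with Hbb, -0.953 with Hbb-b1 and -0.936 with Alas2, and all 6 erythrocyte genes on the array lay between -0.960 and -0.908. Their mean level was -0.59, -0.68, -0.62 and 0.24 in the controls and -0.01, 0.65, 0.52 and 0.51 in the TCDD samples. The 3 controls with the highest Avp thus had the lowest erythrocyte level, and control replicate 4 lay between TCDD replicates 1 and 4. All 6 were higher in TCDD samples, as were 9793 of all 17361 genes tested, and all 6 were well above background on every array. None passed the adjusted threshold (differences of 0.45 to 1.39). All 6 had an unadjusted limma p under 0.05, against 10.7% of all genes. Of the 6, only Slc4a1 had groups that did not overlap (limma adjusted p = 0.12, exact permutation p = 0.029), against 7.10% of all genes. Within groups the relation with Hba-a1 was -0.923. All 6 Avp pairs that passed by r, including those with Cnp and Fshb, did not pass by rho after adjustment, while both Oxt pairs did. With Oxt the median r of the 6 genes was -0.662. The part of blood in the Avp result was not tested.

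**Figure D4:**
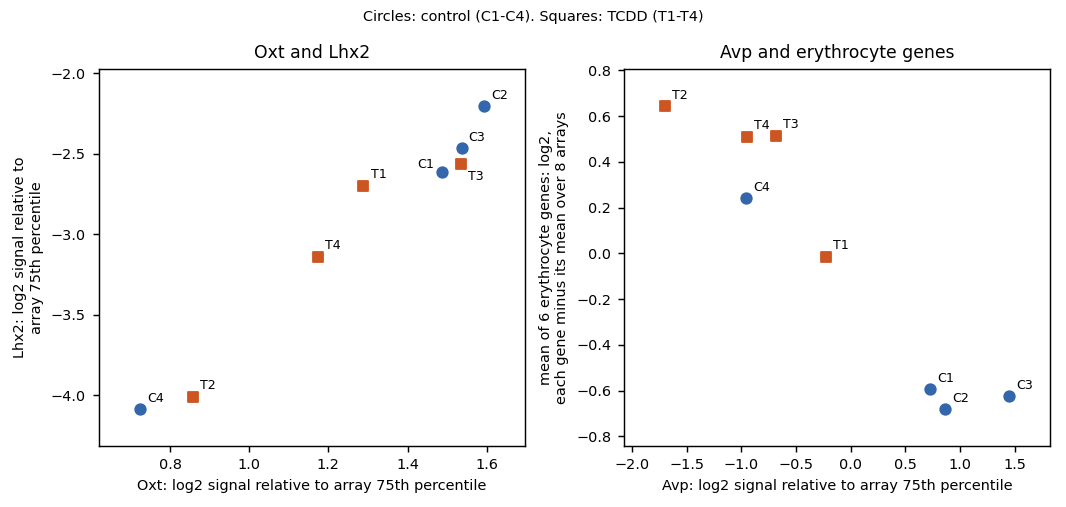
Left, Lhx2 against Oxt, both as log2 signal relative to the array's 75th percentile; right, the mean of 6 erythrocyte genes (log2, each minus its mean over the 8 arrays) against Avp. Each point is an array, circles control and squares TCDD. Lhx2 and Oxt put the arrays in the same order, and control arrays C1 to C3 hold the highest Avp with the lowest erythrocyte level.

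Across the transcriptome, 2316 named genes that varied over the arrays (SD of at least 0.3) were ranked by their r with the members' mean. In that mean Avp and Mbp weigh most, Mbp by its probe at base 2094. Most like the members' mean were Cimip2c (0.969), Ptges (0.963), Omd (0.963), Nnat (0.961) and Kcnmb4 (0.959). Then came Enpp2, Lhx2, Gldc, Kcnk2, Rasl10a, Bgn, Prxl2a, Aoc3, Itgb4 and Lmo1 (0.927). Nnat encodes neuronatin, Ptges an enzyme of prostaglandin E synthesis, Kcnmb4 a subunit of the calcium-activated potassium channel, Enpp2 the enzyme autotaxin, and Omd and Bgn matrix proteoglycans. Lmo1 put the arrays in the same order as the members' mean (rho = 1.00), and it correlated with Oxt at 0.979. The 15 genes correlated with the erythrocyte gene Hba-a1 at -0.881 to -0.712, and the part of blood in their likeness was not tested. Least like it were Fthl17b (-0.899), Igfbp3 (-0.879), Dand5 (-0.870), Or13l2 (-0.869) and Uqcrq (-0.866). Igfbp3, a carrier of insulin-like growth factors, was highest in control replicate 4 at 2.86, against 0.64 to 1.32 in the other controls, and it ranged from 1.07 to 2.14 in TCDD samples. None of these 20 genes passed the adjusted threshold between groups. They were chosen from the same arrays for this likeness, so the values describe them and are not a test.

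**Figure D5:**
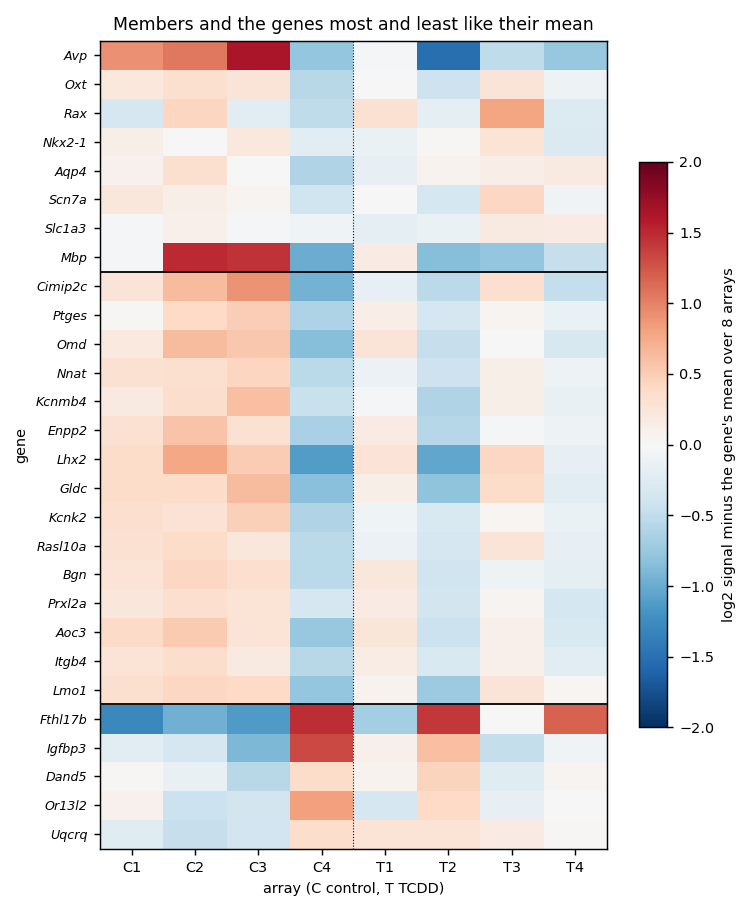
Level of the 8 members (top), the 15 genes most like their mean (middle) and the 5 least like it (bottom) on each array (x axis, C control, T TCDD). Colour is log2 signal minus the gene's mean over the 8 arrays, from -2 to 2. The middle genes are low on C4 and T2 and high on C2 and C3.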

How the data were processed

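Agilent scanner files of 8 arrays (4 control, 4 TCDD) were used. Per the file headers the spots were quantified by Feature Extraction 10.7.1.1. Their processed intensity, background-subtracted by the scanner software, is the value used here. The authors' deposited table of processed intensities, taken to log2, served as an alternative. Spots flagged as outliers were set missing, spots of a probe averaged, and log2 signal centred on each array's 75th percentile. Probes well above background on at least 4 arrays and with at least 3 values per group were kept, and the brightest kept probe stood for a gene. Differences were tested with limma 3.58.1 (R 4.3.3) over all genes, adjusted by Benjamini-Hochberg, and single values and correlations with two-sided exact permutation tests over 70 assignments or 40320 orders (scipy 1.17.1). Methods were tested on simulated data. The "at least" folds compare the bright group with the higher of the dim probe's signal and the lowest signal well above background. Alternatives are in the closing section. Array number marks slide position and was not taken to pair samples.

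Members and lists were chosen with earlier results of these data known. Named genes were all members and probes, the list genes with the largest differences, those whose correlation with a hormone passed after adjustment, and the 15 genes most and 5 least like the members' mean. Gene names follow RefSeq, by accession for 18006 of 30367 probes. Coordinates are rn4 for probes and GRCr8 for promoters, and the array design gives the probe sequences.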

Additional observations from a re-analysis of the deposited data

Results flagged for a closer look

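Of 36 groups of 4 arrays examined, 2 held an array whose gap to its nearest neighbour took up more of the group's range than Dixon's 95% limit, which chance passes in about 1 group of 20. For Oxt, control replicate 4 lay below the other controls (ratio 0.878), at 0.72 against 1.49 to 1.59. For the Aqp4 probe at base 986, TCDD replicate 1 lay below the other TCDD arrays (ratio 0.841). Among probes of the same gene, those of Mbp, Rax and, near background, Gfap gave differing profiles, described above.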

How the results depend on the processing

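No member gene was called under any of the alternatives, and the Avp difference kept its sign in all 19 settings (-1.90 to -1.10, adjusted p 0.15 to 0.62). Over all genes, 10 higher and 4 lower were called. Under normexp with quantile normalization there were 0 and 0 (1077 and 846 at an unadjusted p under 0.05), under quantile normalization alone 0 and 1, and 0 and 1 in the authors' own values. With limma's trend and robust options there were 2 and 2, with median centring 5 higher, and leaving out 1 array gave 0 to 4 higher and 0 to 3 lower. AhR targets called fell from 2 to 0 under both normalizations, the deposited table and when any 1 control array was left out. The count was also 0 with the filter to all 8 arrays and without any 1 TCDD array. Those settings could not call the 2 genes, Cyp1a1 and Cyp1a2. Their probes were dim in all controls and so failed the filter before testing. With the replicate block 0 and 0 genes were called (1071 and 443 unadjusted) and 0 AhR targets. Same-numbered arrays did not deviate together (r = -0.0963 to -0.0189, and 0 arrays correlated best with their own number), so the number was not taken as a pairing.

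Signs of small differences turned. Slc1a3 was -0.0259 with median centring and -0.0038 with the deposited table, and Scn7a was 0.0315 as the mean of its probes. Leaving out 1 array gave Slc1a3 -0.045 to 0.0767 (-0.0146, -0.0450 and -0.0413 without control 4, TCDD 3 and TCDD 4), Scn7a -0.144 to 0.114 (0.0739, 0.0326, 0.0162, 0.1142 and 0.0171), Aqp4 -0.0755 to 0.235, Nkx2-1 -0.167 to 0.0214 and Mbp -1.45 to 0.167. Mbp was 0.162 without control 2 and 0.167 without control 3 because the brighter probe was then that at base 1413. By its probe at base 563, Rax was -1.22. Differences between probes reversed under normexp for Aqp4 (-0.0893, -0.1072 and -0.0179) and Scn7a (-0.0125). Leaving out 1 array gave -0.245 to 0.234 for Aqp4 bases 986 and 1609, 0.0191 to 0.249 for 1609 and 4840, -0.0278 to 0.154 for Scn7a and -0.0369 to 0.0243 for Slc1a3. The median correlation between members ran from 0.308 to 0.586 when 1 array was left out. Causes were not tested beyond the probe change. The number of arrays, 4 per group, limits the precision of every difference.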

Other observations

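Some other hypothalamic peptides varied more over the arrays than any member. Tac1, which encodes substance P and neurokinin A, ranged 29.6-fold and Cartpt, which encodes the CART peptide, ranged 21.9-fold. Cartpt read 2.12, -1.61, -2.19 and 2.26 in TCDD replicates 1 to 4, and between -0.64 and 0.26 in the controls. TCDD replicates 1 and 4 lay above all controls and replicates 2 and 3 below them. Tac1 was 2.66 in TCDD replicate 2, against -2.23, -0.59 and -0.85 in the other TCDD samples and -1.23 to -0.12 in the controls. Neither passed between groups (limma adjusted p = 0.96 and 0.95).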
